A study of Mus musculus with 13 samples.

Results

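The genes described here carry a cell through the G1/S transition and copy its DNA. They are a list of 45 genes, chosen by name: E2F factors, cyclin E and the CDC7 kinase, the proteins that load and start the MCM helicase, polymerases, clamp and fork proteins, enzymes of deoxynucleotide supply, and factors that copy chromatin behind the fork. Of the 45, 44 were measured under their own symbol, among 18193 genes named on the array. The chromatin assembly gene Chaf1a was not analysed here. Each gene was read from 1 probe set, the one with the highest mean signal over the 13 arrays.

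The RNA came from prostate progenitor/stem cells in culture at passage 22, first isolated from 10 wk old wild-type B1/6; 127/SVEV mice. Treatment started when the dishes were 70% confluent. The groups were 100 nM 1,25(OH)2D3, the hormonal form of vitamin D, for 48 h (4 arrays), its vehicle, 0.1% ethanol, for 48 h (3 arrays), the hormone for 6 h (3 arrays) and vehicle for 6 h (3 arrays). The hormone is written 1,25D below, and media were renewed every 24 h in the 48 h groups. All groups share the genotype, the mice's age and the passage. Whether the replicates of a group came from different cultures is not in the labels, so the p-values below measure only the spread between these arrays, and the number of arrays limits the precision.

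E2F transcription factors, held in check by the retinoblastoma proteins until cyclin-dependent kinases release them, switch on most of the genes of this list in late G1. Their products load the MCM helicase at origins, fire it through the CDC7 kinase, and run the fork with polymerases, the PCNA clamp and a supply of deoxynucleotides. Transcripts of these genes are high in dividing cells and low in resting cells, and in many epithelial cell types the vitamin D receptor is known to slow entry into S phase.

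Signals are on the log2 scale, on which a difference of 1 is a 2-fold change. Levels of different probe sets are set against each other only as brightness, such as percentiles among all probe sets, and not as amounts of RNA. A gene is said to have risen or fallen where limma's moderated test over all 45037 probe sets gave a Benjamini-Hochberg adjusted p under 0.05. Cyp24a1, the hydroxylase that breaks down the hormone and a direct receptor target, served as the check of treatment: its signal was 12.18, 12.56, 12.39 and 12.43 in 1,25D at 48 h, against 4.65, 4.92 and 4.10 in vehicle at 48 h, and 13.05, 13.21 and 12.81 in 1,25D at 6 h, against 4.78, 4.41 and 4.40 in vehicle at 6 h. The treated arrays lay far above the vehicle arrays at each time. 1,25D 48 h replicate 4 and vehicle 6 h replicate 1 stood apart from the rest, with interquartile signal ranges of 2.95 and 3.03 against 3.27 to 3.46 elsewhere. For the replication list, the counts of genes called are given with and without these arrays. Other values include them unless stated otherwise. Of the epithelial markers, Krt14 and Krt5, keratins of basal cells, and Krt8 and Krt18, keratins of luminal cells, lay at or above the 99.2 percentile of all probe sets. The luminal secretory gene Pbsn lay at the 5.91 percentile, the pan-leukocyte gene Ptprc at 15.9, the collagen gene Col1a1 at 25.2, the neuroendocrine granule gene Chga at 29.3 and the endothelial gene Pecam1 at 34.1. The signal of the secretory marker was thus low, while those of both keratin pairs were high. The percentiles of Ptprc, Col1a1, Chga and Pecam1 are of single genes, not of their lists. By list, mean signals on the arrays were 5.45 to 6.08 for 6 immune genes and 5.23 to 5.69 for 7 fibroblast or smooth muscle genes. They were 4.67 to 5.10 for 4 endothelial and 4.63 to 4.99 for 3 neuroendocrine genes. Array medians were 5.57 to 5.67.

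Between 6 h and 48 h in vehicle, genes of DNA replication fell together. Of the 44 genes, 36 fell and 0 rose (81.8% fell), whereas 8.75% of all named genes fell and 18.6% were called in either direction. The drop ranged up to Cdc7, the kinase that fires origins, at 3.19-fold lower, and 14 genes fell by at least 2-fold, as 1.84% of all genes did. Since the probe sets of the list had signals above most others, the share is also given for the 8154 genes with at least the mean signal of the second dimmest of them: 17.1% of those fell. Every one of the 44 changes was below 0, against 54.9% over all genes, with a median of -0.85 against -0.03. In 40 of the 44 (90.9%), all vehicle arrays at 48 h lay below all those at 6 h, as in 15.2% of all genes.

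Time in vehicle, medium renewal and any difference in processing day cannot be told apart in this contrast. In RNA from whole cultures, fewer cells in S phase and less of these RNAs per cell cannot be told apart either. Without the pair of arrays that stand apart, 40 of the 44 genes fell. The median of the 44 signals, each centred on its own mean over the 13 arrays, was -0.42, -0.44, -0.49 and -0.54 in 1,25D at 48 h and -0.27, -0.36 and -0.36 in vehicle at 48 h. At 6 h it was 0.47, 0.48 and 0.45 in 1,25D and 0.41, 0.56 and 0.54 in vehicle. The list thus sat higher on each 6 h array than on any 48 h array. In 38 of its genes all 7 arrays at 48 h lay below all 6 arrays at 6 h, as in 9.49% of all genes.

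**Figure D1:**
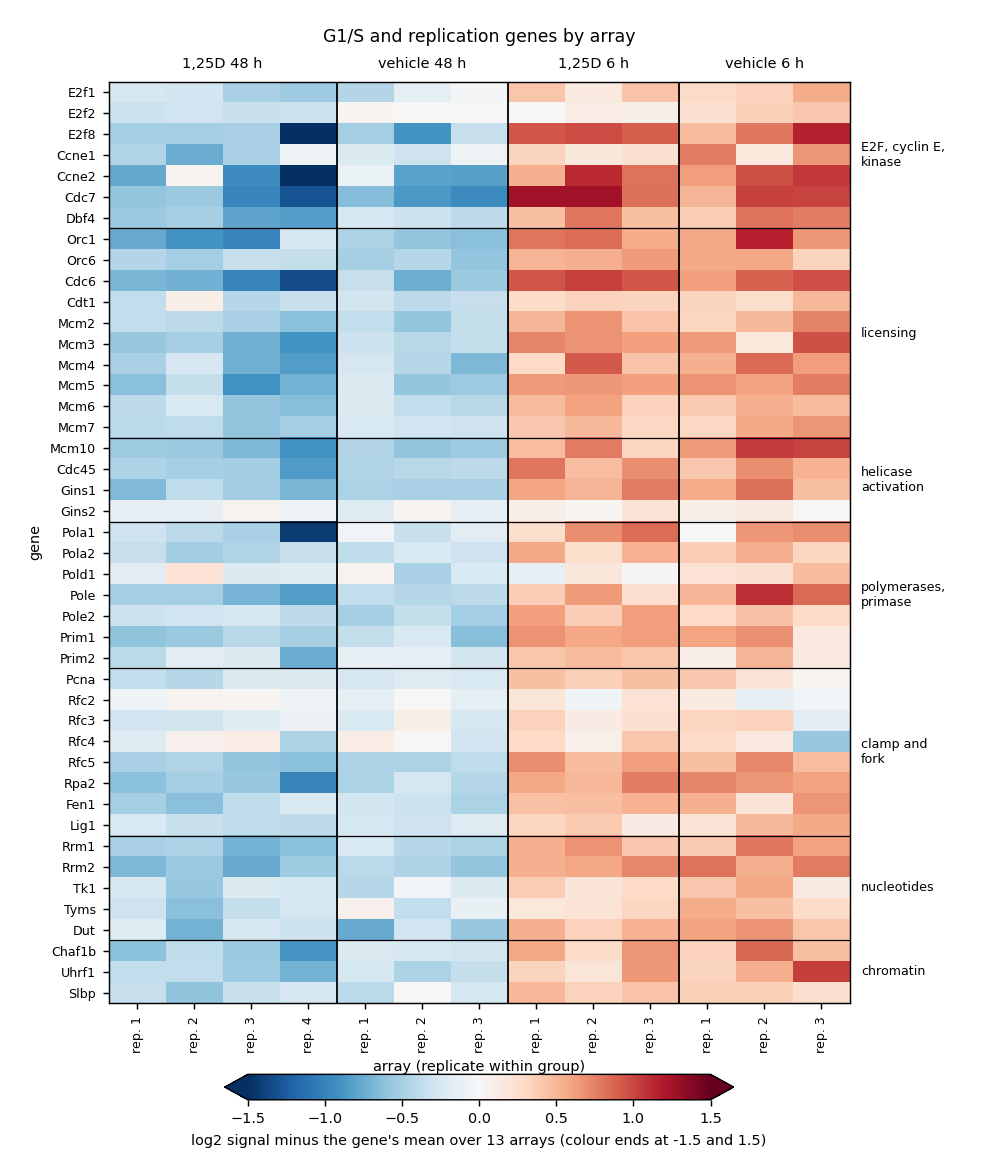
Log2 signal of each of the 44 genes, centred on its mean over the 13 arrays, with genes down the page by role and arrays across by group. The 48 h arrays, in both 1,25D and vehicle, are below the gene's mean for nearly all genes, and the 6 h arrays above it.

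**Figure D2:**
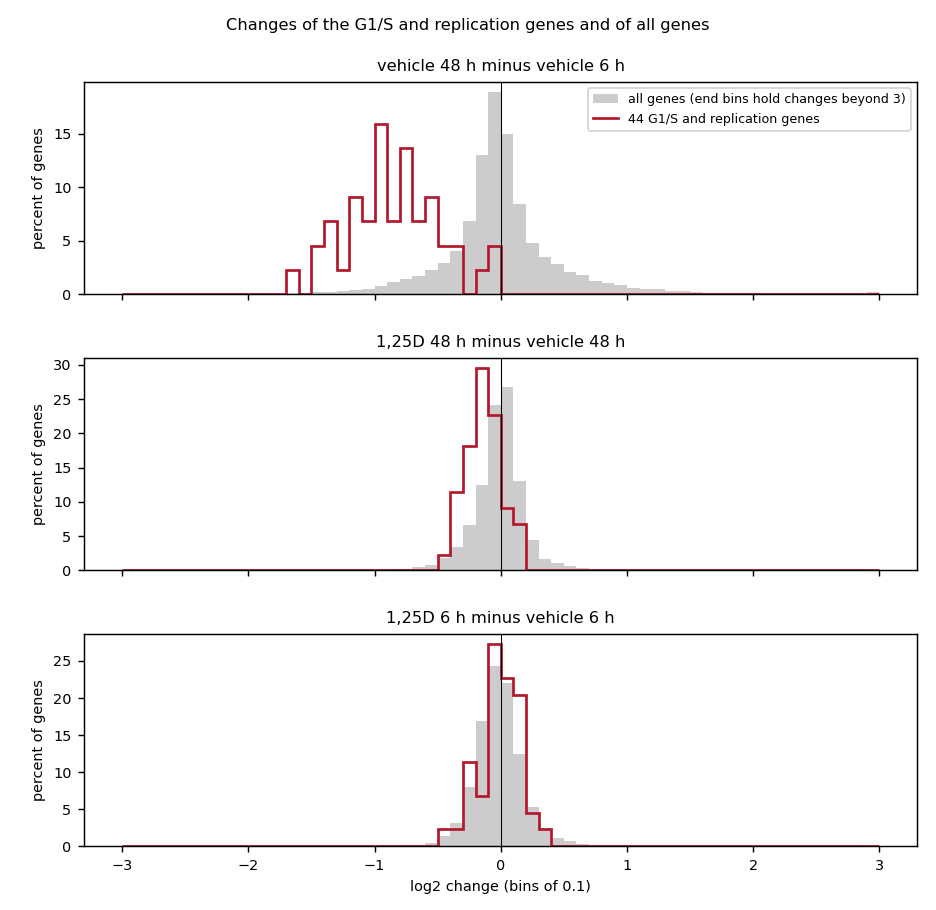
Distributions of the log2 change over the 44 replication genes and over all 18193 named genes, for the hormone contrasts at 48 h and 6 h and for vehicle at 48 h against 6 h. In the vehicle contrast the genes of the list centre at -0.85 and all genes at -0.03, and in both hormone contrasts the distributions of the list lie near 0.

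Some markers of other kinds moved in the same vehicle contrast. Of 6 immune genes, 1 rose, Cd68, a lysosomal protein of macrophages that other cells also make (1.02, adjusted p = 0.00112 by limma), while Ptprc was at 0.066 (adjusted p = 0.939). The mean signal of the 6 was 5.72 to 5.77 in vehicle at 48 h, against 5.48 to 5.99 in vehicle at 6 h, ranges that overlap. Of 6 basal genes, 2 rose: Krt15 (1.69) and Trp63, the transcription factor of basal cells (1.14). The other 4, Krt5, Krt14, Itga6 and Itgb4, were between -0.25 and -0.0084 and not called. The median of the basal list was -0.026, and its mean signal, 10.77 to 11.02 in vehicle at 48 h against 10.32 to 10.64 in vehicle at 6 h, differs through Krt15 and Trp63. The surface antigen gene Psca rose (2.36) and the adhesion receptor gene Cd44 fell (-0.45) among 3 measured progenitor genes, and Krt18 rose (0.30) among 4 luminal genes. By limma, 0 of 14 measured fibroblast or smooth muscle, endothelial and neuroendocrine genes were called in this contrast, where 18.6% of all genes were. None of them had an unadjusted p under 0.05, as 29.4% of all genes did. The means of these lists were dim, 4.63 to 5.69 on the vehicle arrays, and precision is limited at such signals. The part of the marker shifts in the fall of the replication genes was not tested.

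Promoter sequences are shown for 8 genes that fell, because E2F factors are known to act on many genes of this kind through short sites close to the start of transcription. They come from RefSeq on GRCm38.p6 and run from 250 bases before the start to 50 after it, 5′ to 3′ on the gene's own strand. For a gene with several windows, the window with the most E2F-type matches is shown. The first set holds the genes with the largest falls that have a window in the table, with any E2F-type match in capitals.

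Cdc7, chr5:106964072-106964371, plus strand: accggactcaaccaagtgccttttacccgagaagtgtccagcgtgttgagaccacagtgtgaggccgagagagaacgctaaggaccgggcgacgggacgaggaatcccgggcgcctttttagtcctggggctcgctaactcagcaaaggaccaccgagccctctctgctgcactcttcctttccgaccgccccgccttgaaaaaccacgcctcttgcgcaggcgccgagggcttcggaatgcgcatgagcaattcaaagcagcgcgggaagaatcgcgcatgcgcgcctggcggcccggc
Mcm10, chr2:5012742-5013041, minus strand: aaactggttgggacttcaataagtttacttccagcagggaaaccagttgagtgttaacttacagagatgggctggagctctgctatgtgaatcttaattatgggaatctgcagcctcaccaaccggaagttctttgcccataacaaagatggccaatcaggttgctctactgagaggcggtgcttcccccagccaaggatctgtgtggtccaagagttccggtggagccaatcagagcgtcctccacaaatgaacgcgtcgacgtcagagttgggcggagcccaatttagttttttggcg
E2f8, chr7:48881547-48881846, minus strand: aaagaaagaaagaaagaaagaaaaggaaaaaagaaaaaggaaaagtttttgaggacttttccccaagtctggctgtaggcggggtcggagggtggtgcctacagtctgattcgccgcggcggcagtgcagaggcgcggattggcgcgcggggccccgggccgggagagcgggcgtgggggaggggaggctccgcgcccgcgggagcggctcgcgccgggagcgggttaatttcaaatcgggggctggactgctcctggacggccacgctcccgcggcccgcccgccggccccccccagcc
Cdc6, chr11:98907901-98908200, plus strand: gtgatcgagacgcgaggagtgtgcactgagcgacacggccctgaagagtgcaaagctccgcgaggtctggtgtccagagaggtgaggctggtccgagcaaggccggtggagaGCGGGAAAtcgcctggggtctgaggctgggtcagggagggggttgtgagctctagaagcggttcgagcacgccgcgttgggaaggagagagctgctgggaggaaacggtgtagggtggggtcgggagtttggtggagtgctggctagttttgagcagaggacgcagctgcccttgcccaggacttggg

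Of these, Cdc6 alone held a match. The second set holds the MCM helicase subunits with matches, which are printed because subunits of 1 complex can be compared.

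Mcm3, chr1:20820263-20820562, minus strand: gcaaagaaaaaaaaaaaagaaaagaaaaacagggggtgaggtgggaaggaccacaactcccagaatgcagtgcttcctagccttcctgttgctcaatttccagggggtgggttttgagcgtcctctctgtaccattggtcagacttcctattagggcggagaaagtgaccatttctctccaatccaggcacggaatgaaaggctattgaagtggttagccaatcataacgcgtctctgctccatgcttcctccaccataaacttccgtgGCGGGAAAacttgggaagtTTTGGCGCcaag
Mcm5, chr8:75109259-75109558, plus strand: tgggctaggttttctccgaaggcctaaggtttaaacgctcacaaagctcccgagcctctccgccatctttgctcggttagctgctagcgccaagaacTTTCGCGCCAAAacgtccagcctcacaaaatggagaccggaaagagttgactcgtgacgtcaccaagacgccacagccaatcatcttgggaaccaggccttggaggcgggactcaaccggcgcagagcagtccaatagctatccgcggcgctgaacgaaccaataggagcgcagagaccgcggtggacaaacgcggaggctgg
Mcm6, chr1:128359656-128359955, minus strand: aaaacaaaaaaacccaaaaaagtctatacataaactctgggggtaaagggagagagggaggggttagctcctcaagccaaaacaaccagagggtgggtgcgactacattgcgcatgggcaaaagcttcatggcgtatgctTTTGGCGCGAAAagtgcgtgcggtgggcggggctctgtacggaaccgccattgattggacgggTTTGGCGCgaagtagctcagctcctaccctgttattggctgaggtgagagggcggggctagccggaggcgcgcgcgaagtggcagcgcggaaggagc
Mcm7, chr5:138171834-138172133, minus strand: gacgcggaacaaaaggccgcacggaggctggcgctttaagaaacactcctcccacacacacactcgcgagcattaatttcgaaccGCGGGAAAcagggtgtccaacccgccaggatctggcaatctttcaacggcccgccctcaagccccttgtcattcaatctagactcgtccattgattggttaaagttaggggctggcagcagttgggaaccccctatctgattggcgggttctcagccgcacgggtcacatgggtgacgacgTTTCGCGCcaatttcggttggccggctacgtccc

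The letters searched were TTTCCCGC, TTTCGCGC, TTTGCCGC and TTTGGCGC, on both strands, with overlapping matches merged in the capitals. Mcm6 held 3 matches and Mcm3, Mcm5 and Mcm7 held 2 each, whereas Mcm2 had none and Mcm4 has no window in the table. Another Mcm7 window, not shown, held no match. Of 44 windows found for 37 of the genes (some genes have several starts), 14 held a match (31.8%), against 744 of all 32851 windows in the table (2.26%) and 3.21% of the 18110 windows of genes named on the array. CCAAT, the box bound by NF-Y, was in 52.3% of the list's windows and in 37.4% both of all windows and of those of genes named on the array. The cell cycle homology element of late cell cycle genes, searched as TTTGAA or TTCGAA, was in 22.7% of the list's windows, 19.2% of all windows and 15.1% of those of genes named on the array. Counted by match, 10 of 14 genes with an E2F-type match fell in vehicle, as did 22 of 23 with a window and no match, and 4 of 7 with no window in the table. A match describes letters only, and no match says only that these letters are not in that window.

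E2F factors, cyclins and kinases that start S phase fell in 6 of 7 cases, with a median change of -0.98. Cdc7, which phosphorylates the loaded MCM helicase, had 6.72, 6.50 and 6.41 in vehicle at 48 h, against 7.87, 8.39 and 8.38 in vehicle at 6 h. All 3 arrays at 48 h lay well below those at 6 h, a change of -1.67 (SE 0.22, adjusted p = 0.000141 by limma). A dimmer probe set of Cdc7 was at -0.33 and not called. Dbf4, the activating subunit of CDC7, fell by 0.98. Ccne2, a cyclin that drives CDK2 in late G1, had 7.35, 6.65 and 6.64 in vehicle at 48 h, against 8.09, 8.41 and 8.51 in vehicle at 6 h. Its groups did not overlap, and the change was -1.46 (SE 0.35, adjusted p = 0.0121 by limma). E2f8, an atypical E2F that represses the other E2F targets later in S phase, had 7.79, 7.40 and 7.95 in vehicle at 48 h, against 8.78, 9.09 and 9.45 in vehicle at 6 h. Every 48 h value was again below every 6 h value, with a change of -1.39 (SE 0.33, adjusted p = 0.0122 by limma), while a dimmer probe set was at 0.20 and not called.

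Several of these calls lay near the threshold and were lost when 1 array was left out, although the changes stayed negative. Leaving out replicate 2 or 3 of vehicle at 48 h cost Ccne2 its call (adjusted p = 0.0551 and 0.0555 by limma). E2f8 lost its own when replicate 3 of vehicle at 6 h (adjusted p = 0.0555) or replicate 2 of vehicle at 48 h (adjusted p = 0.0607) was left out. The activator E2f1 (-0.60, adjusted p = 0.0164) lost its call without replicate 3 of vehicle at 6 h or replicate 1 of vehicle at 48 h. Cyclin E1, Ccne1 (-0.73, adjusted p = 0.0173), lost its call without replicates 1 or 3 of vehicle at 6 h, or replicates 1 or 2 of vehicle at 48 h, with adjusted p up to 0.0741 over all settings tried. The other Ccne1 probe set, with a mean signal of 7.95 against 8.39, had the larger change of -1.03 (adjusted p = 0.000403 by limma). E2f2, the other activator in the list, had 7.53, 7.49 and 7.50 in vehicle at 48 h, against 7.74, 7.84 and 7.90 in vehicle at 6 h. Its groups were separate, but the change of -0.32 did not pass the test (adjusted p = 0.088 by limma), and it did without the pair of arrays that stand apart.

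All 10 genes of origin licensing fell, with a median of -0.97. They encode the loading factors Orc1, Orc6, Cdc6 and Cdt1 and the 6 subunits of the MCM2-7 helicase ring. Cdc6, the ATPase that loads the ring at origins, had 7.89, 7.51 and 7.69 in vehicle at 48 h, against 8.86, 9.13 and 9.21 in vehicle at 6 h. The groups lay well apart, and the change was -1.37 (SE 0.18, adjusted p = 0.00013 by limma). Orc1, the largest subunit of the origin recognition complex, had 6.73, 6.61 and 6.58 in vehicle at 48 h, against 7.77, 8.37 and 7.85 in vehicle at 6 h. Orc6, its smallest subunit, had 8.70, 8.77 and 8.61 in vehicle at 48 h, against 9.76, 9.77 and 9.53 in vehicle at 6 h. Neither gene's groups overlapped, with changes of -1.36 (SE 0.20) and -0.9957 (SE 0.11). Mcm7 had 11.95, 11.87 and 11.86 in vehicle at 48 h, against 12.49, 12.74 and 12.84 in vehicle at 6 h. The 48 h arrays were all lower (-0.79, SE 0.089, adjusted p = 4.28e-05 by limma), and all 4 of its probe sets fell, by 0.71 to 0.79. The other ring subunits moved by a similar size: Mcm2 by -0.95, Mcm3 by -0.95, Mcm4 by -1.12, Mcm5 by -1.13 and Mcm6 by -0.81. Cdt1, which brings the ring to the origin, fell least of the licensing genes (-0.70).

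Of the 4 genes of helicase activation, 3 fell. Mcm10, a factor needed to start unwinding, had 7.47, 7.31 and 7.37 in vehicle at 48 h, against 8.54, 8.96 and 8.92 in vehicle at 6 h. The 48 h arrays were more than 1 below the lowest 6 h array, a change of -1.42 (SE 0.16, adjusted p = 5.18e-05 by limma). Cdc45 and Gins1, which complete the active helicase with MCM2-7, changed by -0.96 and -1.09. Gins2, another subunit of the same GINS complex, was at -0.18 (adjusted p = 0.459, 95% interval -0.43 to 0.069), and its other probe set was at -0.02.

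Of the 7 polymerase and primase genes, 4 fell. Pole, the catalytic subunit of the leading strand polymerase epsilon, had 7.99, 7.94 and 7.98 in vehicle at 48 h, against 8.88, 9.47 and 9.22 in vehicle at 6 h. Its groups stayed clearly apart, with a change of -1.22 (SE 0.16, adjusted p = 0.000178 by limma). Pole2, its accessory subunit (-0.79), Pola2, a subunit of polymerase alpha (-0.72), and Prim1, the catalytic primase (-0.88), fell as well. Pola1, the catalytic subunit of polymerase alpha (-0.62, SE 0.28, adjusted p = 0.205), and Prim2, the large primase subunit (-0.43, adjusted p = 0.111), did not pass. Both passed without the pair of arrays that stand apart, and Prim2 also without 1,25D 48 h replicate 4 alone. Pold1, the catalytic subunit of polymerase delta, just missed the threshold (-0.53, adjusted p = 0.0526), while its other probe set fell (-0.49, adjusted p = 0.0295). Its first probe set passed without vehicle 48 h replicate 1, without 1,25D 48 h replicate 2, and without the pair of arrays.

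Clamp, clamp loader and fork genes split, with 5 of 8 called. Rfc5, a subunit of the clamp loader RFC, had 9.24, 9.22 and 9.31 in vehicle at 48 h, against 10.15, 10.42 and 10.16 in vehicle at 6 h. All 48 h arrays lay below all 6 h arrays, with a change of -0.99 (SE 0.11, adjusted p = 3.09e-05 by limma). The other RFC subunits of the list did not pass: Rfc3 was at -0.30 (adjusted p = 0.237), Rfc2 at -0.077 (adjusted p = 0.828) and Rfc4 at -0.019 (adjusted p = 0.984). Rfc2 had 9.51, 9.64 and 9.51 in vehicle at 48 h, against 9.78, 9.52 and 9.59 in vehicle at 6 h. Its 95% interval, -0.31 to 0.16, excludes a fall of the size seen in Rfc5. Rfc4 had 9.57, 9.45 and 9.17 in vehicle at 48 h, against 9.75, 9.60 and 8.89 in vehicle at 6 h, with 1 low array at 6 h, and its interval was wider, -0.48 to 0.44. Rfc3 passed without vehicle 6 h replicate 3 (adjusted p = 0.0331). Rfc1, the large RFC subunit, which is outside the list, fell (-0.61, adjusted p = 0.0131), and lost its call without replicates 2 or 3 of vehicle at 6 h or at 48 h (highest adjusted p = 0.0657). Pcna, the sliding clamp, fell by 0.44 (adjusted p = 0.0033) and Rpa2, which coats single-stranded DNA, by 1.05. A second Rpa2 probe set, at the 79.6 percentile of signal against 84.0, was at -0.32 (adjusted p = 0.74 by limma). Fen1, the flap nuclease of Okazaki fragments, fell by 0.82, and Lig1, the ligase that seals them, by 0.67.

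All 5 genes of nucleotide supply fell, with a median of -0.98. Rrm2, the S phase subunit of ribonucleotide reductase, had 11.19, 11.13 and 11.02 in vehicle at 48 h, against 12.41, 12.13 and 12.37 in vehicle at 6 h. It had the smallest p of the list, at 2.27-fold lower (-1.18, SE 0.093, adjusted p = 2.07e-06 by limma), and its other probe sets fell by 1.12 and 1.31. Rrm1, the large subunit of the same enzyme, fell by 0.98, but another of its probe sets, of similar brightness, was at -0.16 (adjusted p = 0.89). Dut, which removes dUTP, fell by 1.10, thymidine kinase 1, Tk1, by 0.60, and thymidylate synthase, Tyms, by 0.57 (adjusted p = 0.0195). Tyms was the dimmest gene of the list, at the 48.3 percentile, and lost its call without replicates 1 or 2 of vehicle at 6 h, or 2 or 3 of vehicle at 48 h. All 3 measured genes of chromatin copying fell. Uhrf1, which recruits the maintenance DNA methyltransferase to new DNA, had 9.56, 9.35 and 9.46 in vehicle at 48 h, against 10.16, 10.36 and 10.86 in vehicle at 6 h, a change of -1.0005 (SE 0.17, adjusted p = 0.00141 by limma). The histone chaperone subunit Chaf1b fell by 0.80 and Slbp, which binds histone mRNA, by 0.54.

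**Figure D3:**
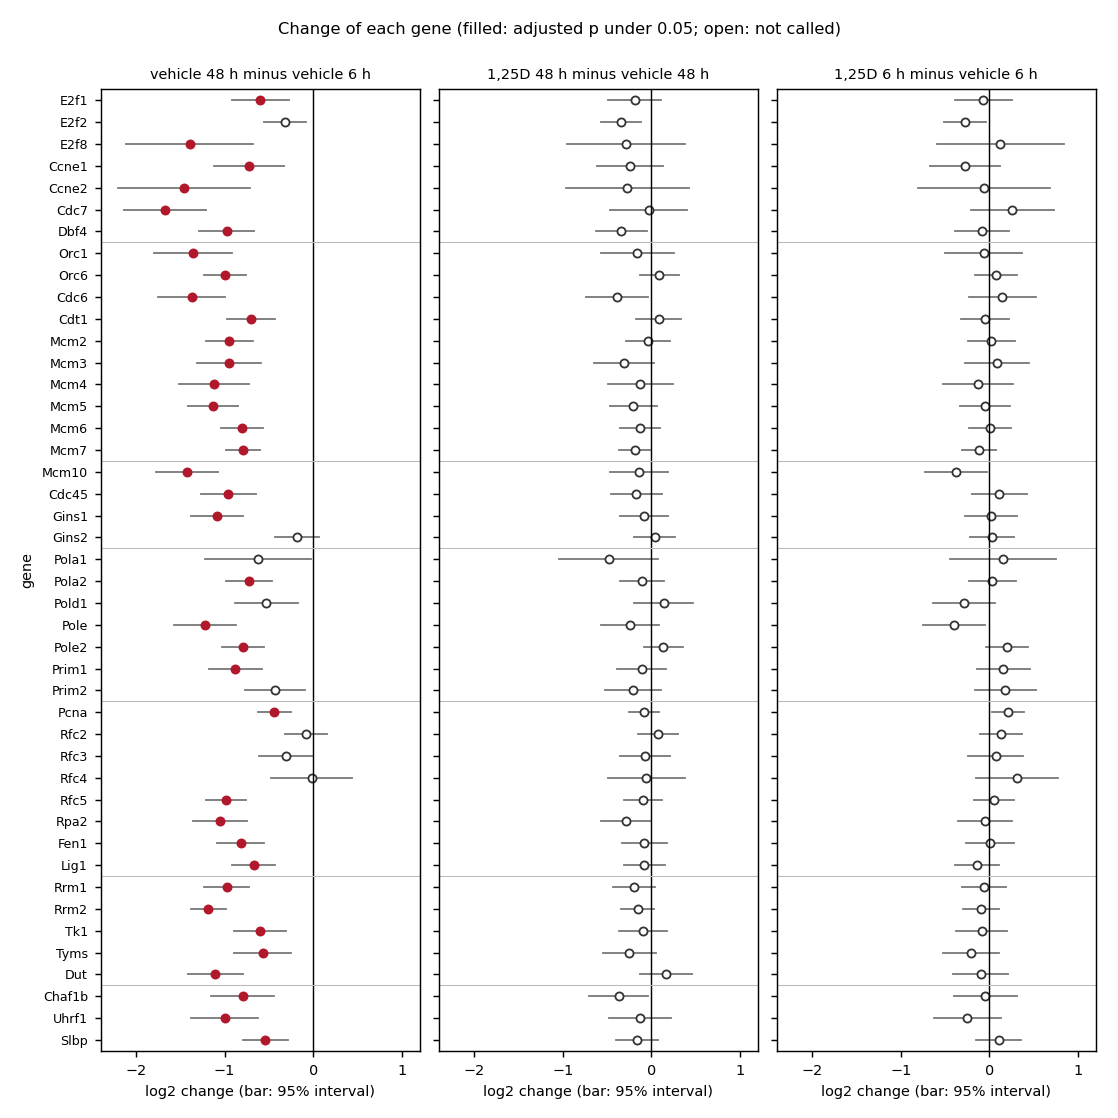
Log2 change of each of the 44 genes with its 95% interval, by role, for 1,25D against vehicle at 48 h, 1,25D against vehicle at 6 h, and vehicle at 48 h against 6 h. The vehicle contrast runs from -1.67 (Cdc7) to -0.02 (Rfc4), while the hormone contrasts run from -0.48 to 0.16 at 48 h and from -0.40 to 0.31 at 6 h.

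Under 1,25D at 6 h, no replication gene was called: 0 of 44 by limma, where 0.852% of all genes were called, and 4 had an unadjusted p under 0.05 (9.09%, against 7.01% of all genes). The changes ran from -0.40 to 0.31 with a median of -0.02, with 22 above 0 and 22 below (54.8% of all genes were below 0). All 44 of the 95% intervals lay within 1 on either side of 0, so a 2-fold change was outside each of them, and 28 lay within 0.5. The arrays of the groups did not overlap, with 1,25D lower, in 2 genes (4.55%, against 4.51% of all genes). Without the pair of arrays that stand apart 0 were called as well.

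The 4 genes with the smallest p at 6 h were Pole, Pcna, E2f2 and Mcm10. Pole had 8.74, 9.01 and 8.63 in 1,25D at 6 h, against 8.88, 9.47 and 9.22 in vehicle at 6 h. Those ranges overlapped, and the change was -0.40 (SE 0.16, adjusted p = 0.721 by limma). Pcna had 13.22, 13.13 and 13.22 in 1,25D at 6 h, against 13.18, 12.96 and 12.80 in vehicle at 6 h, again with overlap and with the higher mean in 1,25D (0.21, SE 0.085, adjusted p = 0.729 by limma). E2f2 had 7.48, 7.60 and 7.58 in 1,25D at 6 h, against 7.74, 7.84 and 7.90 in vehicle at 6 h. Its 3 treated arrays lay below its 3 vehicle arrays (-0.27, SE 0.11, adjusted p = 0.731 by limma). Mcm10 had 8.37, 8.69 and 8.23 in 1,25D at 6 h, against 8.54, 8.96 and 8.92 in vehicle at 6 h, with overlap (-0.38, SE 0.16, adjusted p = 0.783 by limma).

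Under 1,25D at 48 h, 0 of 44 genes were called by limma as well, where 2.39% of all genes were called. Most changes were small and negative: 37 of 44 (84.1%, against 50.8% of all genes) were below 0, with a median of -0.14 and a range of -0.48 to 0.16. Without 1,25D 48 h replicate 4, an array that stands apart, 32 of the 44 were below 0 and the median was -0.11. An unadjusted p under 0.05 was reached by 6 genes, all lower (13.6%, against 5.68% of all genes in that direction), namely E2f2, Dbf4, Chaf1b, Cdc6, Mcm7 and Rpa2. In 8 genes every treated array lay below every vehicle array (18.2%, against 7.11% of all genes): E2f2, Dbf4, Mcm3, Mcm7, Cdc45, Pole, Rpa2 and Chaf1b. Both counts include 1,25D 48 h replicate 4 and are not given here without it. A second Rpa2 probe set was at -0.055 and not called. The 95% interval lay within 1 on either side of 0 in 43 of 44 genes, Pola1 being the other (with -0.48, interval -1.04 to 0.079), and within 0.5 in 30. In the same contrast Cd68 rose (1.23), while the other 5 immune genes were between -0.11 and 0.085 and not called (median of the 6, 0.035). The mean signal of the 6 was 5.77 to 6.08 in 1,25D, against 5.72 to 5.77 in vehicle, a difference that comes from Cd68. Krt8 (-0.43) and Krt18 (-0.34) fell, and the mean of the 4 luminal genes was 10.73 to 10.88 in 1,25D, against 11.06 to 11.09 in vehicle. The part of these shifts in the values of the replication genes was not tested.

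By role, the median change at 48 h was -0.27 for the E2F, cyclin and kinase genes and between -0.16 and -0.08 for the other 6 roles. These medians include replicate 4 of 1,25D at 48 h. E2f2 had 7.17, 7.18, 7.15 and 7.17 in 1,25D at 48 h, against 7.53, 7.49 and 7.50 in vehicle at 48 h. The 4 treated arrays were nearly level, and all lay below the 3 vehicle arrays. Of the 44 it came nearest to a call (-0.34, SE 0.10, adjusted p = 0.232 by limma). It was called without an intensity trend in the fit (adjusted p = 0.0424) and with array quality weights (adjusted p = 0.033). Over the alternatives at 48 h, the number of all genes called ranged from 260 to 1043, against 434. Dbf4 had 9.63, 9.68, 9.39 and 9.36 in 1,25D at 48 h, against 9.92, 9.86 and 9.79 in vehicle at 48 h. Its groups were separate, but not past the threshold (-0.34, SE 0.13, adjusted p = 0.51 by limma). Chaf1b had 8.19, 8.42, 8.24 and 7.92 in 1,25D at 48 h, against 8.58, 8.56 and 8.53 in vehicle at 48 h, also separate (-0.37, SE 0.15, adjusted p = 0.601 by limma). Cdc6 had 7.55, 7.52, 7.25 and 6.91 in 1,25D at 48 h, against 7.89, 7.51 and 7.69 in vehicle at 48 h. Here 2 treated arrays lay level with the lowest vehicle array (-0.39, SE 0.16, adjusted p = 0.611 by limma).

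**Figure D4:**
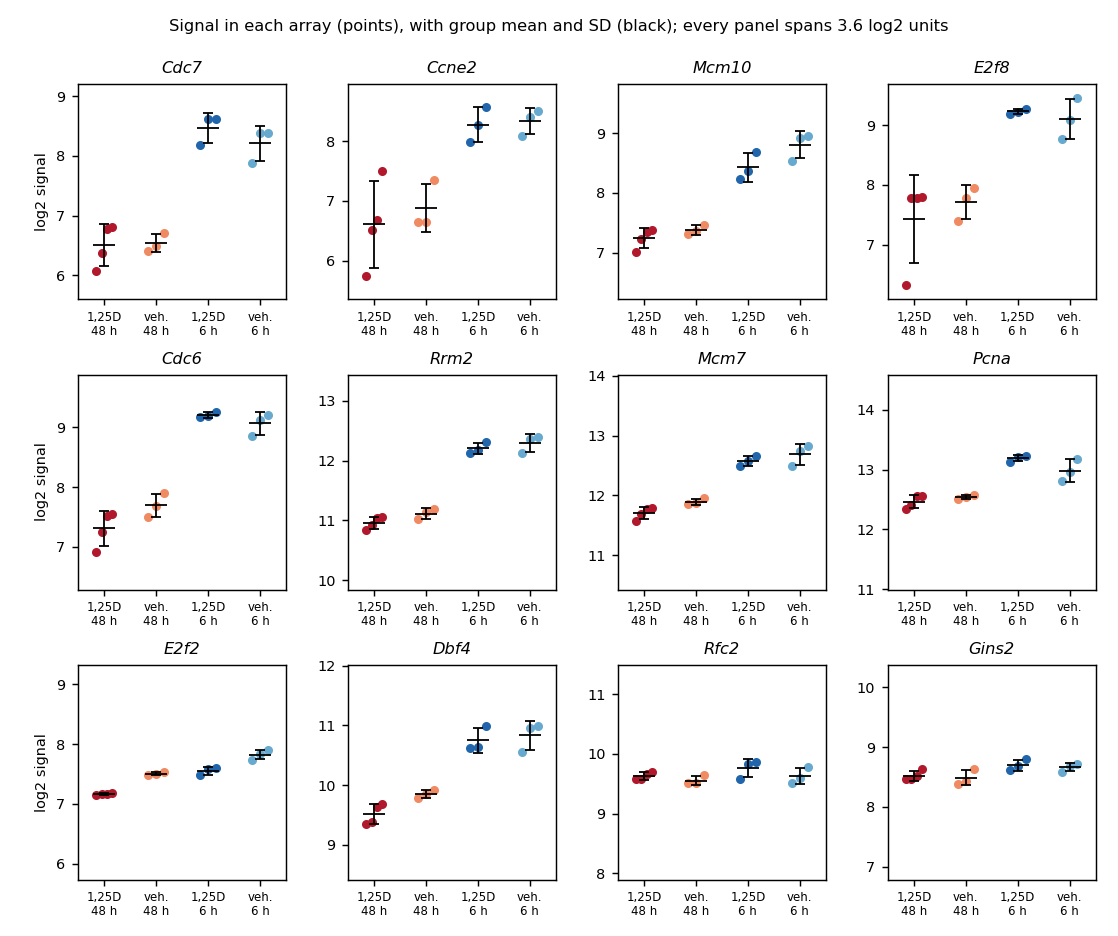
Log2 signal on each of the 13 arrays for 12 of the genes, with points for arrays and lines for group means, in the order 1,25D 48 h, vehicle 48 h, 1,25D 6 h and vehicle 6 h. In Cdc7, Mcm10, Cdc6 and Rrm2 all 48 h arrays lie below all 6 h arrays, the E2f2 arrays of 1,25D lie below those of vehicle at each time, and Rfc2 and Gins2 show little difference between groups.

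The test of the difference between the hormone's effects at 48 h and at 6 h called 0 of 44 genes (0.632% of all genes were called), with 2 at an unadjusted p under 0.05 (7.23% of all genes). The median difference was -0.11 and 33 of 44 were below 0, against 48.2% of all genes. Both values include the arrays that stand apart. Over the alternatives tried, the median ran from -0.14 to -0.05. The smallest p belonged to Pcna, whose change was -0.081 at 48 h, against 0.21 at 6 h (difference -0.29, SE 0.12, adjusted p = 0.756 by limma). At 48 h its signal was 12.40, 12.34, 12.56 and 12.55 in 1,25D, against 12.52, 12.57 and 12.54 in vehicle. Those groups overlapped, as they did at 6 h. Next came Cdc6 (difference -0.53, SE 0.24), Pold1 (0.42, SE 0.23) and Prim2 (-0.38, SE 0.22), with adjusted p from 0.862 to 0.985 by limma.

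For Cdc6 the signals at 6 h were 9.19, 9.27 and 9.17 in 1,25D at 6 h, against 8.86, 9.13 and 9.21 in vehicle at 6 h, which overlap. Pold1 had 8.31, 8.69, 8.27 and 8.29 in 1,25D at 48 h, against 8.53, 7.99 and 8.24 in vehicle at 48 h, and 8.34, 8.64 and 8.49 in 1,25D at 6 h, against 8.69, 8.71 and 8.94 in vehicle at 6 h. In 1,25D it was the higher at 48 h by 0.14 and the lower at 6 h, by 0.29, and neither change was called. Prim2 had 8.32, 8.56, 8.52 and 7.98 in 1,25D at 48 h, against 8.61, 8.59 and 8.45 in vehicle at 48 h, and 9.14, 9.20 and 9.14 in 1,25D at 6 h, against 8.83, 9.24 and 8.87 in vehicle at 6 h. Its changes were -0.21 at 48 h and 0.18 at 6 h, both with overlapping groups. The hormone contrast at each time shares its vehicle arrays with the contrast over time, so for any gene the 3 values do not vary independently of each other.

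Other genes of DNA replication also fell over time in vehicle. Of 31 further replication factors, 19 fell (61.3%, against 8.75% of all genes) and 0 rose (9.84% of all genes), with a median of -0.71. The smallest p values were those of Dna2, a nuclease and helicase of the lagging strand (-2.15), Tipin, of the fork protection complex (-0.89), Wdhd1, which ties polymerase alpha to the fork (-1.23), and Gmnn, the inhibitor of CDT1 (-0.68). Of 20 measured genes of other S phase functions, 14 fell (70%, against 8.75% of all genes) and 1 rose (5%, against 9.84%). Those that fell included the histone chaperone Asf1b (-1.23), the deaminase Dctd (-1.44), the chromatin ATPase Atad2 (-0.78) and the nuclease Exo1 (-1.47). The mitochondrial thymidine kinase Tk2 was the 1 that rose (0.53), and it lost its call without replicates 1 or 2 of vehicle at 6 h, or 2 or 3 of vehicle at 48 h (highest adjusted p = 0.1). Under 1,25D, 0 genes of either list were called by limma at 6 h or 48 h, where 0.852% and 2.39% of all genes were called. At an unadjusted p under 0.05, the replication factors had 2 of 31 genes at 48 h and 3 at 6 h, and the other S phase genes 2 of 20 and 1, where 10.3% and 7.01% of all genes had one.

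Of 30 regulators of G1/S outside the list, 11 fell in vehicle (36.7%, against 8.75% of all genes) and 2 rose (6.67%, against 9.84%). Skp2, which marks p27 for breakdown (-1.81), cyclin A2, Ccna2 (-1.21), and the E2F partner Tfdp1 (-0.81) fell. Cdkn2b, the p15 inhibitor of CDK4 and CDK6, rose by 1.53 (adjusted p = 4.59e-06 by limma), and Rbl2, the p130 pocket protein of resting cells, rose by 0.99, a call that was lost without replicate 1 of vehicle at 6 h, or 1 or 3 of vehicle at 48 h (highest adjusted p = 0.085). Cdkn2b had 9.97, 10.11, 10.15 and 9.85 in 1,25D at 48 h and 9.38, 9.71 and 9.49 in vehicle at 48 h. At 6 h it had 8.57, 8.57 and 8.66 in 1,25D and 8.21, 7.87 and 7.91 in vehicle. The treated arrays lay above the vehicle arrays at each time, without passing the test (at 48 h 0.50, adjusted p = 0.0784, and at 6 h 0.60, adjusted p = 0.0714, by limma).

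Calls under 1,25D among these regulators were few. At 48 h cyclin D1, Ccnd1, rose, with 12.83, 12.77, 12.92 and 12.84 in 1,25D at 48 h, against 12.15, 12.48 and 12.50 in vehicle at 48 h (0.46, adjusted p = 0.00876 by limma). Ccna2 fell (-0.39, adjusted p = 0.0446), but lost its call on leaving out any of 11 of the 13 arrays, all but vehicle 6 h replicates 2 and 3 (adjusted p up to 0.229). At that time the E2F partner Tfdp2 was at -0.63 (adjusted p = 0.43). At 6 h the growth regulator Myc fell (-0.60, adjusted p = 0.0124), while the inhibitor Cdkn2d (0.52) and the repressor E2f7 (0.48) did not pass. The 6 h call of Myc was lost on leaving out replicate 1 or 2 of 1,25D or replicate 2 of vehicle at that time (highest adjusted p = 0.0915). For Myc the difference between the times passed too (0.82, adjusted p = 0.0217 by limma), but that call was lost on leaving out replicate 1 of 1,25D at 48 h, any 1 vehicle array at 48 h, or replicate 1 or 2 of 1,25D at 6 h (highest adjusted p = 0.0844).

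Genes of G2/M and mitosis fell in 24 of 28 cases over time in vehicle (85.7%, against 8.75% of all genes). None rose (9.84% of all genes), and the median was -0.82, close to the -0.85 of the replication genes. Among them were the mitotic kinases Aurka (-1.15) and Plk1 (-1.22), Cdc20, which activates the anaphase-promoting complex (-0.93), and the spindle checkpoint gene Mad2l1 (-0.89). Under 1,25D at 48 h all 28 changes were below 0 (50.8% of all genes), with a median of -0.31. An unadjusted p under 0.05 was reached by 18, all lower (64.3%, against 5.68% of all genes in that direction). For the replication genes these values were 37 of 44, -0.14 and 6. The G2/M values include 1,25D 48 h replicate 4, which stands apart, and are not given here without it. Of the 28, 2 fell (7.14%, against 0.951% of all genes): the kinetochore gene Ndc80 (-0.61, adjusted p = 0.0246 by limma) and Cdc20 (-0.44, adjusted p = 0.0403). The Ndc80 call was lost on leaving out replicate 1, 3 or 4 of 1,25D or any 1 vehicle array of that time (highest adjusted p = 0.148). That of Cdc20 was lost on leaving out replicate 1, 3 or 4 of 1,25D, replicate 1 or 2 of vehicle, or any 1 array of 1,25D at 6 h (highest adjusted p = 0.234). Without the pair of arrays that stand apart, Cdc20 was not called (adjusted p = 0.0579 by limma), while Ndc80 was (adjusted p = 0.0189). Whether the lists differ from each other under 1,25D was not tested.

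**Figure D5:**
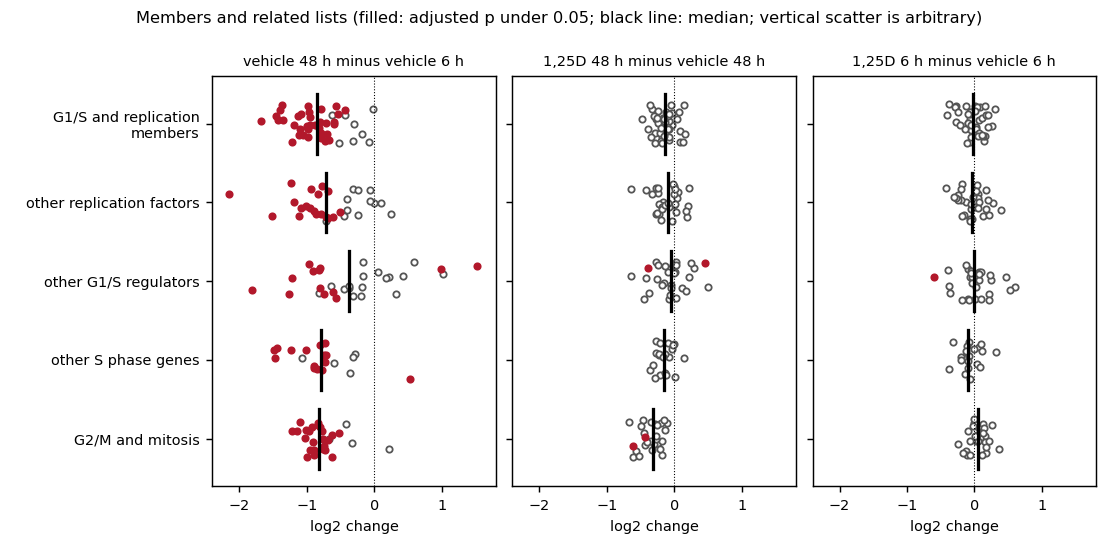
Log2 changes of the genes of the replication list and of 4 related lists, 1 point per gene with the list's median, for 1,25D against vehicle at 48 h and 6 h and for vehicle at 48 h against 6 h. At 48 h under 1,25D the medians are -0.14 for the replication genes and -0.31 for G2/M genes, and over time in vehicle they are -0.85 and -0.82.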

How the data were processed

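The 13 arrays were read from a table of log2 values that the authors deposited. The submitters' processing notes name only MAS5, and how the values were normalized is not given in the sources used here. No detection call entered. The table holds 45101 probe sets, more than the A chip named in the design text carries, and it was named through the platform annotation given for it. After 64 control sets were left out, 45037 were tested: 34945 had 1 gene symbol, 932 several and 9160 none. The brightest probe set by mean stood for each gene. Group means over all 13 arrays were compared in limma 3.58.1 (R 4.3.3; eBayes with an intensity trend, two-sided) with Benjamini-Hochberg adjustment over all probe sets. The values were used as deposited, with no pseudocount. Scripts were tested on simulated data, and figures were drawn with matplotlib 3.10.9 (Python 3.11.15).

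The genes and lists were chosen with earlier results of these data known. Values on every array are given for up to 8 called genes with the largest changes and 4 with the smallest p per comparison, and for the gene with the smallest p of each role where a comparison had calls; of each related list, the 4 with the smallest p are named. Alternatives were quantile normalization, median centring, an offset of 32, no trend, leaving out the dimmest 40% of probe sets, only the groups compared, array quality weights, replicate number as a block, the mean of all probe sets, no sets ending in _x_at or _s_at, leaving out each array, and leaving out the 2 arrays that stand apart. Leaving out vehicle 48 h replicate 2 with those 2 was added after the data were seen.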

Additional observations from a re-analysis of the deposited data

Results flagged for a closer look

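In the group of 4 arrays, 1,25D at 48 h, 5 of the 44 genes had 1 array far from the other 3. The cutoff is one that independent, normally distributed values pass in about 1 in 20 groups. These genes vary together and the share over all genes was not computed, so the count is not read as an excess. Replicate 4, one of the arrays that stand apart, was low for 3 of the 5 genes. E2f8 was at 6.32 there, against 7.79 to 7.81 on the other arrays of the group, Cdc45 at 7.10, against 7.43 to 7.49, and Pola1 at 6.63, against 7.57 to 7.74. Replicate 2 was far off for 2: Pold1 was high at 8.69, against 8.27 to 8.31, and Tk1 was low at 10.17, against 10.48 to 10.53. None of the 5 genes was called under 1,25D at 48 h by limma with or without any 1 array, and 0 of the 5 had an unadjusted p under 0.05 with all arrays.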

How the results depend on the processing

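Under 25 alternatives the number of replication genes that fell over time in vehicle was 32 to 40, against 36, and 32 to 37 on leaving out 1 array; 30 genes fell under every alternative. Under 1,25D at 6 h the count was 0 under all 25, and for the difference between times 0 under the 24 that can give it. At 48 h it was 0 except for 1 gene, E2f2, with no intensity trend and with array quality weights. Over time in vehicle, 6 of the 36 genes that fell lost their call under at least 1 alternative: E2f1, E2f8, Ccne1, Ccne2 and Tyms, and Rrm1 when all probe sets of a gene were averaged (adjusted p = 0.0599). Of the 8 not called, 5 passed under at least 1: E2f2, Pola1, Pold1, Prim2 and Rfc3. None of the 36 changed direction under these alternatives, and of the 44 only Rfc4 did (range -0.28 to 0.15). Under 1,25D, where changes lie near 0, the sign changed under at least 1 alternative in 11 genes at 48 h, 24 at 6 h and 24 for the difference between times. Over all genes the number called ranged from 68 to 248 at 6 h, against 155, from 260 to 1043 at 48 h, against 434, from 66 to 262 for the difference between times, against 115, and from 2366 to 4347 over time in vehicle, against 3382. The cause was not tested. Whether replicate numbers pair the arrays was not settled. Deviations correlated over 0.1 in 7 of 18 pairs of same-numbered arrays and in 16 of 45 pairs with different numbers. With the replicate number as a block, 36 genes fell over time in vehicle and 0 were called in each of the other comparisons. Precision is limited by 3 or 4 arrays a group and, for dim genes such as Tyms, by background signal.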

Other observations

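Genes outside all lists whose signal over the 13 arrays was most like the mean of the replication genes, by Pearson's r, were Wdr77, a partner of the arginine methyltransferase PRMT5 (0.995), the ribosome assembly genes Mdn1 (0.994), Rrp12 (0.993) and Utp4 (0.993), the mitochondrial folate carrier Slc25a32 (0.992) and Mybl2, a transcription factor of cycling cells (0.991). The mean of the replication genes was higher on each 6 h array than on any 48 h array, so these values mostly describe that separation. Over time in vehicle all 6 fell, by 1.14 (Utp4) to 2.07 (Rrp12). Within the list, the genes least like the mean of the others were Rfc2 (0.367), Rfc4 (0.373) and Pold1 (0.616), and those most like it Cdc6 and Rfc5 (0.988 each).

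Probe sets of 1 gene did not always move together. The 44 genes have 98 probe sets, and of the 54 not used for the gene's value, 21 fell over time in vehicle, 0 rose and 0 were called under 1,25D by limma at either time. The share of unused probe sets that fell among all genes was 4.89%, and 19 of the 54 lay below the median signal. Rrm1 was read from a probe set that fell by 0.98, while another of similar brightness changed by -0.16 (SE 0.32, adjusted p = 0.89 by limma). Dimmer second probe sets of Cdc7 (-0.33, adjusted p = 0.294) and E2f8 (0.20, adjusted p = 0.802) were not called. The same held for a second probe set of Rpa2 (-0.32, adjusted p = 0.74). For Mcm3, probe sets at -0.68 (adjusted p = 0.127) and -0.40 (adjusted p = 0.24) were not called, while others fell by 0.97 and 1.37. Every probe set fell in 10 genes with more than 1, Mcm7, Rrm2 and Ccne1 among them.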
